A study of Caenorhabditis elegans with 18 samples.

Results

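Small RNAs of the wild-type Caenorhabditis elegans strain N2 were compared between young mothers, adults that have begun to carry embryos, and mixed populations, which hold animals of several stages. The members are the 7538 genes, of 42048 listed in both kinds of small RNA table, whose small RNAs averaged at least 10 RPM (reads per 1000000) over 4 libraries. Those are 2 libraries of N2 young mothers fed HT115 bacteria with the L4440 vector and 2 libraries of N2 mixed populations fed NA22 bacteria. All values were rescaled to 1000000 over the shared genes, because each table had been normalized separately. Stage, food and experiment differ together between these groups, so their parts in any difference below cannot be told apart.

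The series holds 18 libraries of whole worms grown at 20 °C, 2 in each group. N2 carries no engineered mutation. Libraries that carry mutations are given only as further values from the same growth conditions: rde-11(hj37) young mothers on HT115-L4440, and 4 lines with meg-3(ax3055) and the alleles meg-4(ax3052), meg-4(ax4310), meg-4(ax4311) or meg-4(ax4312) from mixed populations on NA22. For the meg-4(ax4310) line the title says mixed population and another label says young mother, and the title was followed. Nothing in the labels says that the 2 libraries of a group came from separate cultures, so p-values measure only the spread between these libraries, which may be technical. The growth protocol names starvation synchronization or mixed populations without tying either to a group.

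C. elegans makes several kinds of small RNA. MicroRNAs are cut from hairpin transcripts and repress messenger RNAs, piRNAs are germline RNAs bound by the Argonaute PRG-1, and secondary small interfering RNAs (siRNAs) are made by RNA-dependent RNA polymerases on messenger RNAs. Because the RNA was treated with 5' polyphosphatase, which removes the extra phosphates at the ends of secondary siRNAs, these libraries can hold them as well. A value for a protein-coding gene below is therefore a level of small RNAs mapping to that gene, not of its messenger RNA. The files give no separate values for the 2 strands of a gene, and the strand setting is not given in the sources used here.

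Summed over the listed genes, the N2 young mother libraries held 4258187 and 4852083 reads and the N2 mixed libraries 4213397 and 3820363 reads. Equal reads at 2 overlapping genes, described below, enter these sums at each gene. Such sums over the shared genes also set the RPM scale. Replicates correlated at 0.987 in young mothers and 0.966 in mixed populations (log2 scale, across 7538 genes, which are not independent). MicroRNA genes took 20.1 and 18.7% of reads in young mothers and 23.2 and 28.5% in mixed populations. piRNA genes took 7.22 and 6.83% against 2.66 and 2.91%. Protein-coding genes took 59.6 and 61.6% against 64.5 and 58.6%, ranges that overlap. Among genes that overlap no other annotated gene, piRNA genes took 2.98 and 2.76% of reads against 1.51 and 1.62%. MicroRNA genes took 13.9 and 13.2% there against 16.1 and 23.8%, and protein-coding genes 71.9 and 72.8% against 72.0 and 64.6%.

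The tables differed in how reads were given to overlapping genes, and this touches the sums and shares above and every count that follows. The gene K01F9.6 and the microRNA gene mir-80, which overlap, both had exactly 47968 reads in young mother library 1 and 50421 in library 2. In the mixed libraries mir-80 had 0 reads in each and K01F9.6 had 1 in each. K01F9.7 and mir-90 shared 28731 and 26713 reads in young mothers and had 0 in each mixed library. The rde-11 young mothers also held equal counts for K01F9.6 and mir-80, 37906 and 46688. In all, 1094 shared genes had an overlapping partner with identical reads in both young mother libraries (20 or more reads), and 0 had one in the mixed libraries. Of the 474 of these that were tested, 431 were piRNA genes, 293 were called higher and 0 were called lower.

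Differences at overlapping genes therefore cannot be told apart from this difference in counting. The results below are led by the 4131 tested genes that overlap no other gene on either strand in the RefSeq annotation of a later assembly, a choice made after the data were seen. The other tested genes were 3376 with an overlap and 31 that could not be placed. Some genes without an annotated overlap show the same sign. C24H11.1 and C24H11.2, 86 reads each in young mother library 1 and 100 each in library 2, had 0 reads in both mixed libraries, and T23B12.14 went from 988 and 924 RPM to 0 and 0.

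Among genes without an overlap 196 were higher in young mothers (4.74% of those tested) and 241 were lower (5.83%), by limma with Benjamini-Hochberg adjusted p below 0.05. Over all 7538 genes the counts were 735 higher (9.75%) and 379 lower (5.03%), and 537 of the higher ones overlap another gene. The median log2 difference, young mothers minus mixed on the log2(RPM + 1) scale, was -0.05 among genes without an overlap and 0.01 over all. Both young mother libraries lay above both mixed libraries at 27.8% of genes without an overlap and below them at 28.8%, against 33.4% and 26.2% over all. The split of calls depended on the scaling. With microRNA genes left out of the library total it was 125 higher and 362 lower (598 and 573 over all), and with the total taken over genes without an overlap it was 368 and 210 (1053 and 327 over all). These scalings moved the median of all genes to -0.11 and 0.14.

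**Figure D1:**
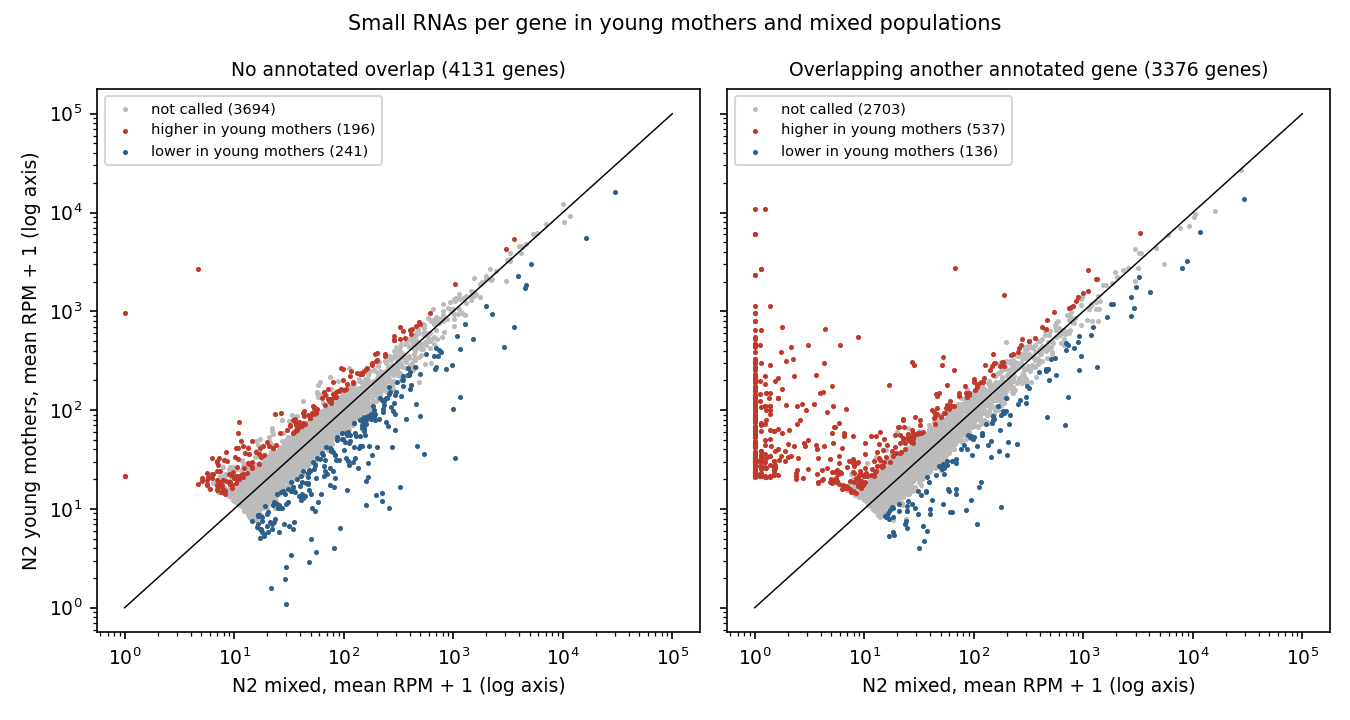
Mean small RNA level per gene in N2 mixed populations (x, RPM + 1, log axis) and N2 young mothers (y, same unit), 2 libraries each, for genes without and with an annotated overlap; the line marks equal levels and colours mark the limma calls. The column of red points at the left of the right panel holds genes near 0 in the mixed libraries, of which 259 overlap another gene, while the left panel holds 241 genes lower in young mothers, reaching far below the line.

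Most calls depended on at least 1 library. Without young mother library 1 the genes without an overlap gave 13 higher and 69 lower, and without library 2 they gave 10 and 60. The spread then comes from the mixed pair alone. Without mixed library 1 they gave 520 and 311, and without mixed library 2 they gave 554 and 746. Of the calls above, 8 of the 196 higher and 39 of the 241 lower were called under each of these 4 removals, and the genes among them that are named below are said to hold without any 1 library. Apart from genes near 0 in the mixed libraries, the called genes named below that are not said to hold were no longer called, or fell below the mean of 10, without 1 or both of the young mother libraries, except where another library is named. The libraries with mutations show the levels elsewhere in each growth condition. All 4 young mother libraries stood above all 10 mixed libraries at 167 of the 196 genes called higher, against 19.3% of all genes without an overlap. They stood below all 10 at 158 of the 241 called lower, against 5.47%. Over all 7538 tested genes, overlaps included, these shares were 24.9% above and 4.95% below. The 4 N2 libraries that gave the calls are among those compared. Larger shares among called genes were therefore partly set by the selection and are no separate support for the calls.

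Small RNAs of ERGO-1 class target genes were lower in young mothers. ERGO-1 is an Argonaute that binds primary siRNAs made in oocytes and embryos, and its targets, many of them poorly conserved or duplicated genes, then receive abundant secondary siRNAs. Of 20 listed genes 17 were tested, and 13 were lower in young mothers and 0 higher, against 5.03% and 9.75% over all tested genes. Among the 12 without an overlap 9 were lower, against 5.83% of all genes without an overlap. Their median log2 difference was -1.71, against -0.05 for all genes without an overlap. E01G4.5 had 388 and 485 RPM in young mothers and 3621 and 2133 in mixed populations (log2 -2.68, SE 0.25, limma adjusted p = 0.000107). F39F10.4 had 11.7 and 13.8 against 209 and 183 (log2 -3.84, SE 0.20, limma adjusted p = 1.99e-06). C40A11.10, which the RefSeq table lists as a microRNA gene, had 11.04 and 7.63 against 328 and 191 (log2 -4.62, SE 0.30). In these 3 genes each mixed library lay more than 4 times above both young mother libraries.

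The other ERGO-1 class targets ranged from large differences to none. F55C9.3 had 242 and 277 RPM in young mothers and 986 and 746 in mixed populations (log2 -1.72), and Y43F8B.9 had 66.9 and 69.5 against 283 and 226 (log2 -1.88). These 5 genes, with E01G4.5, F39F10.4 and C40A11.10, were called without any 1 library. The differences at W04B5.2, 1158 and 1107 against 2047 and 1948, and at K02E2.6, 1742 and 1818 against 2975 and 3043, were smaller (log2 -0.82 and -0.76). C44B11.6 had 1410 and 1559 against 1640 and 1600, and C18D4.6 had 201 and 205 against 151 and 163, and neither passed the test (log2 -0.13 and 0.37). The list had 6 lower calls without young mother library 1 and 7 without library 2.

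Summed over the 14 listed genes without an overlap, ERGO-1 class targets took 3947 and 4238 RPM in N2 young mothers and 10141 and 7927 in N2 mixed populations. The rde-11 young mothers had 1798 and 1751, below N2 young mothers, and the 8 meg-3 meg-4 mixed libraries ran from 7906 to 12795. E01G4.5 alone had 94.0 and 92.6 in rde-11 young mothers and 1951 to 4552 in the meg-3 meg-4 lines. In the messenger RNA libraries of N2 young mothers on HT115-L4440, E01G4.5 had a scaled signal of 7.34 and 5.45 and F39F10.4 of 0.669 and 0.765. No label ties these libraries to the animals of the small RNA libraries, and no mixed messenger RNA libraries were used here.

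**Figure D2:**
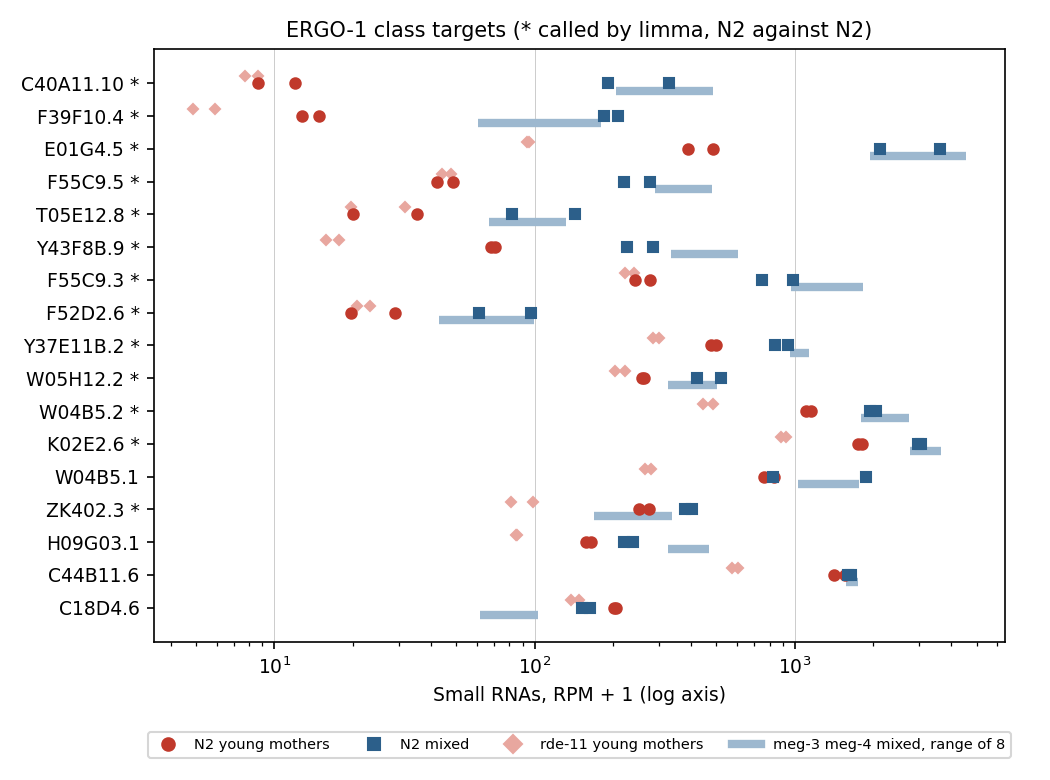
Small RNAs (RPM + 1, log axis) of the 17 tested ERGO-1 class targets in each N2 library, with both rde-11 young mother libraries and the range of the 8 meg-3 meg-4 mixed libraries; genes are ordered by log2 difference and a star marks a limma call between the N2 groups. From C40A11.10 to F52D2.6 both N2 young mother libraries lie left of both N2 mixed libraries, whereas at C44B11.6 and C18D4.6 the groups lie close.

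Several noncoding genes without an overlap had far fewer small RNAs in young mothers. linc-12, a long intervening noncoding RNA gene, had 30.5 and 33.0 RPM in young mothers and 1327 and 747 in mixed populations (log2 -4.93, SE 0.26, limma adjusted p = 2.15e-06). linc-68 had 10.8 and 11.3 against 272 and 175 (log2 -4.18, SE 0.25). F40G9.20, a noncoding gene, had 35.9 and 34.6 against 690 and 400 (log2 -3.86), and T05E11.9, also noncoding, had 42.5 and 41.8 against 497 and 427 (log2 -3.42). At all 4 the mixed libraries lay above the young mother libraries without overlap between groups, and the calls held without any 1 library. The rde-11 young mothers gave 32.2 and 28.6 at linc-12 and the meg-3 meg-4 lines 627 to 1605, so the libraries with mutations fell on the same sides.

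Protein-coding genes followed with similar sizes. Y51A2A.16 had 2.58 and 3.504 RPM in young mothers and 102 and 58.01 in mixed populations (log2 -4.28), C39B5.2 had 9.86 and 10.3 against 200 and 121 (log2 -3.82), and F49B2.3 had 14.6 and 12.6 against 287 and 159 (log2 -3.89). These 3 calls held without any 1 library. C11G6.2 had 0 and 0.206 against 32.3 and 25.2 (log2 -4.75, limma adjusted p = 6.41e-07), a gene almost without reads in young mothers. T25G12.11, with 0.235 and 1.65 against 33.5 and 22.6 (log2 -3.98), was similar, and without mixed library 1 both fell below the mean of 10 and were not tested. Their differences depend on the added 1. C01A2.1 had 109 and 95.8 against 1097 and 887 (log2 -3.26) and gst-15, a glutathione S-transferase gene, had 29.8 and 26.999 against 159 and 176 (log2 -2.52). Both held without any 1 library, as did ces-2, a bZIP transcription factor known for its role in programmed cell death, with 44.2 and 40.4 against 143 and 134 (log2 -1.69). The genes C01A2.1, gst-15 and ces-2 were chosen after their values were seen.

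Among genes without an overlap that were higher in young mothers, T23B12.14, C24H11.1, C24H11.2 and the piRNA gene 21ur-6424 had the largest differences, with 0 to 3.88 RPM in the mixed libraries. The next was H04D03.3. It had 80.1 and 68.8 RPM in young mothers and 8.74 and 11.3 in mixed populations (log2 2.78, SE 0.23, limma adjusted p = 5.32e-05), and its call held without any 1 library. dot-1.3, of the DOT1 family of histone methyltransferases, had 52.4 and 64.1 against 7.04 and 12.6 (log2 2.49, SE 0.29). Its call was lost without young mother library 2, and rde-11 young mothers had only 17.7 and 17.9 there. vhl-1, the worm VHL gene, whose protein marks the hypoxia factor HIF-1 for breakdown, had 23.2 and 19.8 against 8.25 and 7.79 (log2 1.32) and held without any 1 library, a gene chosen after its values were seen. The 10 higher genes with the largest differences outside the microRNA, piRNA and structural RNA classes, overlaps included, K01F9.6, K01F9.7, F16A11.6, F49E12.14, Y37A1B.335, T23B12.14, ZK525.4, C32D5.15, F10E7.12 and Y71G12B.36, ran from 440 to 11265 RPM in young mothers and at most 0.269 in mixed libraries. All of them are noncoding genes, 9 of the 10 overlap another gene, and 6 of the 10 have an overlapping microRNA gene with identical reads in young mothers.

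Long intervening noncoding RNA genes were divided. Of 34 tested linc genes 15 were lower in young mothers and 4 higher, against 5.03% and 9.75% over all tested genes. The higher count is near that share. Of the 20 without an overlap 8 were lower and 3 higher, against 5.83% and 4.74% of all genes without an overlap. Without young mother library 1 or 2 the 34 genes had 3 and 4 lower calls and 0 higher. linc-17 had 171 and 182 RPM against 467 and 357 (log2 -1.20), and linc-61 had 27.01 and 33.2 against 74.7 and 95.1 (log2 -1.46). linc-21 was higher, with 970 and 954 against 617 and 603 (log2 0.66), as was linc-45, with 718 and 754 against 532 and 452 (log2 0.59). linc-29, one of the linc genes with the most reads, had 11980.5 and 12289.8 against 10579 and 9410 and was not called (log2 0.28). The rde-11 young mothers stood below N2 young mothers at several of these genes. In rde-11 young mothers linc-61 had 2.95 and 6.49 and linc-22, which overlaps another gene and whose call TMM scaling ended (limma adjusted p = 0.125), had 799 and 794 against 6534 and 6094 in N2 young mothers and 9166 and 14171 in N2 mixed libraries.

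**Figure D3:**
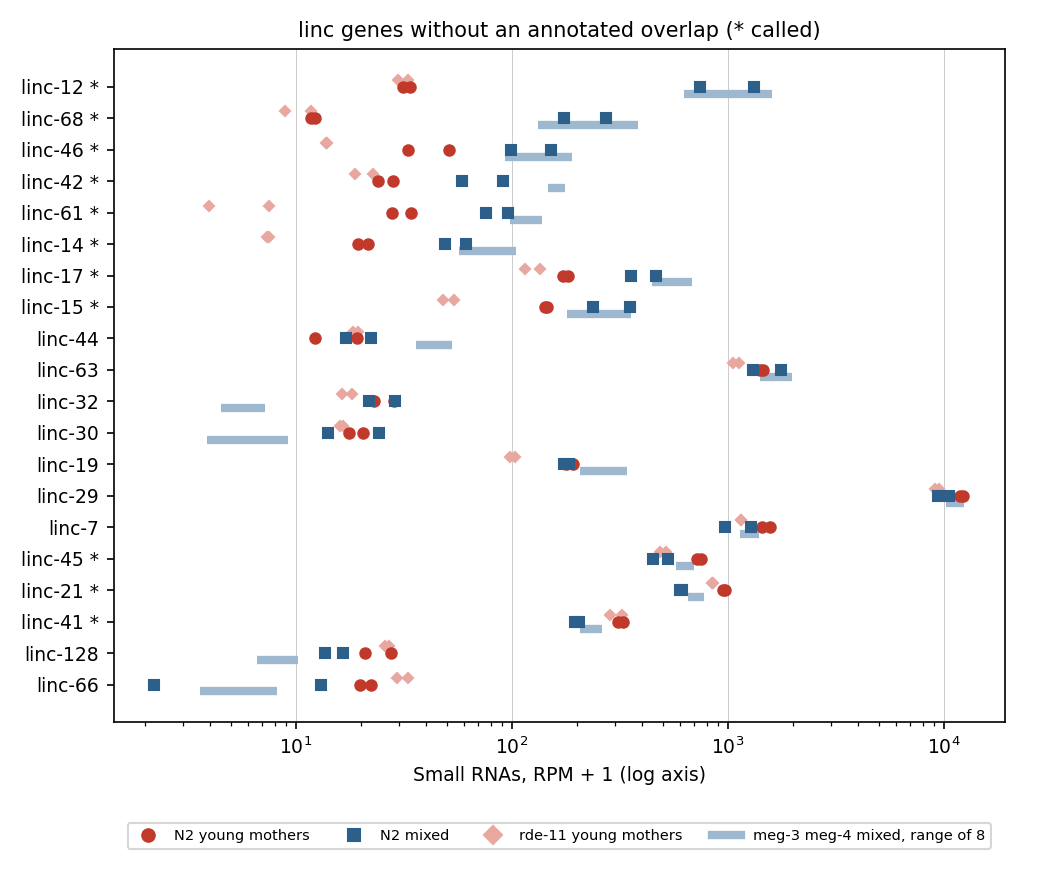
Small RNAs (RPM + 1, log axis) of the 20 tested linc genes without an annotated overlap in each N2 library, with both rde-11 young mother libraries and the range of the 8 meg-3 meg-4 mixed libraries; a star marks a limma call between the N2 groups. The 8 genes at the top were lower in N2 young mothers and linc-45, linc-21 and linc-41 were higher.

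Many microRNA genes without an overlap were lower in young mothers, and few were higher. Of 257 listed microRNA genes 117 were tested, with 47 lower and 18 higher, and 17 of the 18 were under 1 RPM in both mixed libraries and overlap another gene. Over all tested genes 5.03% were lower and 9.75% higher. Among the 49 microRNA genes tested without an overlap 23 were lower and 1 was higher, with a median of -0.73. The shares over all genes without an overlap were 5.83% and 4.74%. mir-246 was the higher one of the 49, with 4076 and 4383 RPM in young mothers and 2870 and 3182 in mixed populations (log2 0.48). It was not called with TMM scaling, under which 13 of the 49 were lower and 0 higher, and 17 were lower where only genes without an overlap were tested. Without young mother library 1 or 2 the lower calls among these 49 fell to 6 and 4, against 35 and 23 without mixed library 1 or 2.

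Among microRNA genes without an overlap the largest difference was at mir-788, which had 16.2 and 14.8 RPM in young mothers and 189 and 462 in mixed populations (log2 -4.17, SE 0.37, limma adjusted p = 8.61e-05). mir-244 had 783 and 598 against 2983 and 4227 (log2 -2.37), mir-73 had 420.4 and 404 against 1229 and 1071 (log2 -1.48), and mir-44 had 4.23 and 6.39 against 40.04 and 26.9 (log2 -2.44). These 4 held without any 1 library. lsy-6, a microRNA that sets the left-right difference between the ASE taste neurons, had 9.16 and 7.83 against 41.98 and 66.3 (log2 -2.51) and lost its call without young mother library 2. mir-228, known for its expression in glia, had 5640 and 5281 against 10509.8 and 22154 (log2 -1.48), a call that TMM scaling ended (limma adjusted p = 0.0782). At mir-788, lsy-6 and mir-228 mixed library 2 lay above mixed library 1, and both lay above the young mother libraries.

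The mir-35 family, microRNAs of the oocyte and embryo that embryos need to survive, was lower in young mothers at 6 of 7 tested members. The share over all tested genes was 5.03%. mir-35 had 3333 and 3167 RPM in young mothers and 11359 and 6289 in mixed populations (log2 -1.38, SE 0.25, limma adjusted p = 0.00698). mir-38 had 82.7 and 84.5 against 641 and 283 (log2 -2.34), and mir-36 had 944 and 834 against 3651 and 1772 (log2 -1.52). mir-39 had 2569 and 2946 against 10651 and 5394 (log2 -1.46), mir-37 1589.6 and 1565 against 5121 and 2943 (log2 -1.30), and mir-40 1015 and 1161 against 3638 and 2124 (log2 -1.36). mir-41, the other tested member, had 14.6 and 14.8 against 33.7 and 22.6 and was not called (log2 -0.87, limma adjusted p = 0.061), though it passed with TMM scaling (limma adjusted p = 0.042). Mixed library 1 stood above mixed library 2 at every tested member.

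All tested members of the mir-35 family overlap another annotated gene, and 0 of them had a partner with identical reads in young mothers. Without young mother library 1 or 2 the family gave 0 calls each, and without mixed library 1 or 2 it gave 6 and 7. The summed level was 9551 and 9778 in N2 young mothers, 9980 and 9729 in rde-11 young mothers, 35101 and 18832 in N2 mixed populations and 17001 to 50833 in the meg-3 meg-4 libraries. The 4 young mother libraries lay within a narrow range below all 10 mixed libraries.

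Calls in the let-7 family, which times the larval to adult transition, depended on 1 library. With all 4 libraries 0 of 5 members were called, and without mixed library 2 all 5 were higher, with a median log2 difference of 0.61 against -0.06 without mixed library 1. let-7 itself had 2020 and 1664 RPM in young mothers and 1102 and 2114 in mixed populations (log2 0.26). lin-58, the name under which the files list mir-48, had 6341 and 5706 against 4465 and 6135 (log2 0.20). mir-84, mir-241 and mir-795 had log2 differences of 0.18, 0.12 and 0.58. lin-4, which acts in early larval timing, had 217 and 201 against 0 and 0, but it shares its reads with the overlapping gene F59G1.10 in young mothers, and no fold is given. mir-237, the other member of its family, had 9405 and 9080 against 8563 and 14829 and was not called (log2 -0.29).

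The mir-51 family, a broadly expressed group with overlapping functions, had 4 lower members of 6 tested, against 5.03% over all tested genes. Of these 4, mir-54 and mir-55 overlap another gene, and mir-51 and mir-53 do not. mir-54 had 614 and 533 RPM against 1005 and 1354 (log2 -1.03), mir-53 81.96 and 76.7 against 130 and 186 (log2 -0.96), mir-55 739 and 631 against 1005 and 1430.1 (log2 -0.81), and mir-51 466 and 374 against 739 and 650 (log2 -0.73). The calls of mir-53 and mir-55 were lost with TMM scaling (limma adjusted p = 0.0592 and 0.0994), and all 4 were lost without either young mother library. mir-56 had 212 and 168 against 257 and 346 and was not called (log2 -0.66), and mir-52 went from 1040 and 901 to 0 and 0, with reads identical to Y37A1B.335 in young mothers. In the mir-58 family mir-82 had 26749 and 27445 against 26168 and 28644 (log2 -0.02), and mir-81, mir-58.1 and mir-2209.1 were not called (log2 -0.10, -0.61 and -0.24). mir-80 was the remaining tested member, described above for its counting.

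Tested piRNA genes were higher in young mothers or not called. Of 13407 listed 718 were tested, and 309 were higher and 0 lower, against 9.75% and 5.03% over all tested genes. Of the 718 genes 192 were under 1 RPM in both mixed libraries and passed the filter only through young mothers. The count over those tested therefore does not speak for the list. Only 148 of the 718 overlap no other gene, and there 13 were higher and 0 lower, against 4.74% and 5.83% of all such genes. The median log2 difference of the 148 was 0.42. 21ur-6424 had 2598 and 2713 RPM in young mothers and 3.88 and 3.49 in mixed populations (log2 9.15), far from the other 12. Its call held without any 1 library, and rde-11 young mothers had 2297 and 2241. Whether counting has a part in this gap was not tested. 21ur-1312 had 120 and 99.5 against 35.4 and 67.7 (log2 1.14), 21ur-4005 had 71.6 and 74.2 against 33.7 and 39.5 (log2 0.98), and 21ur-5666 had 317 and 313 against 188 and 203 (log2 0.69). The call of 21ur-1312 was lost with TMM scaling (limma adjusted p = 0.0989), and these 3 piRNA genes were named after their values were seen.

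Summed over the 4257 listed piRNA genes without an overlap, including those below the filter, the level was 14409 and 13654 RPM in N2 young mothers and 8035 and 8730 in N2 mixed populations. The rde-11 young mothers had 14970 and 13898 and the meg-3 meg-4 libraries 6483 to 7932. The sum includes 21ur-6424. With fewer libraries the calls were few: without young mother library 1 or 2 only 1 and 2 of the 148 genes were called higher.

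Some sperm genes had more small RNAs in young mothers, at low levels, but the calls depended on the scaling. Major sperm proteins drive the crawling of nematode sperm, and their 31 listed genes summed to 55.2 and 62.7 RPM in N2 young mothers and 7.04 and 22.8 in N2 mixed populations, with 0 genes reaching the mean of 10. Of 62 other sperm genes 12 were tested, and 5 were higher and 0 lower, against 9.75% and 5.03% over all tested genes. Without an overlap 4 of 10 were higher, against 4.74% of all genes without an overlap. With TMM scaling 0 of the 12 were called, with microRNA genes left out of the total 3 were, and without either young mother library 0 were. Genes this low pass the filter mainly through the group where they are high, so the count over those tested does not speak for the list.

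ssp-34, of a sperm-specific gene family, had 45.8 and 50.5 RPM in young mothers and 4.61 and 16.4 in mixed populations (log2 2.31, SE 0.46, limma adjusted p = 0.0122). ssq-1 had 36.9 and 43.7 against 4.37 and 14.5 (log2 2.17), and ssp-10 had 18.6 and 18.1 against 1.70 and 6.45 (log2 2.11). With TMM scaling these 3 missed the threshold (limma adjusted p = 0.0533, 0.0552 and 0.0544), and without either young mother library they were not called. spe-41, a sperm channel gene, had 166 and 168 against 139 and 151 (log2 0.20) and spe-44, a regulator of the sperm program, had 13.6 and 14.6 against 17.7 and 14.2 (log2 -0.16), and neither was called. smz-1, a PDZ domain protein gene of sperm meiosis outside the list, had 28.9 and 34.2 against 2.43 and 8.06 (log2 2.54) and was named after its values were seen.

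At ssp-34, ssq-1, ssp-10 and smz-1 mixed library 2 lay above mixed library 1, the reverse of the mir-35 family, while spe-44 had more in mixed library 1. Summed over the 48 other sperm genes without an overlap, the level was 557 and 592 in N2 young mothers, 611 and 617 in rde-11 young mothers, 259 and 397 in N2 mixed populations and 171 to 282 in the meg-3 meg-4 libraries. In whole worms a smaller number of cells of a type and less RNA per cell cannot be told apart, here and in the lists that follow.

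**Figure D4:**
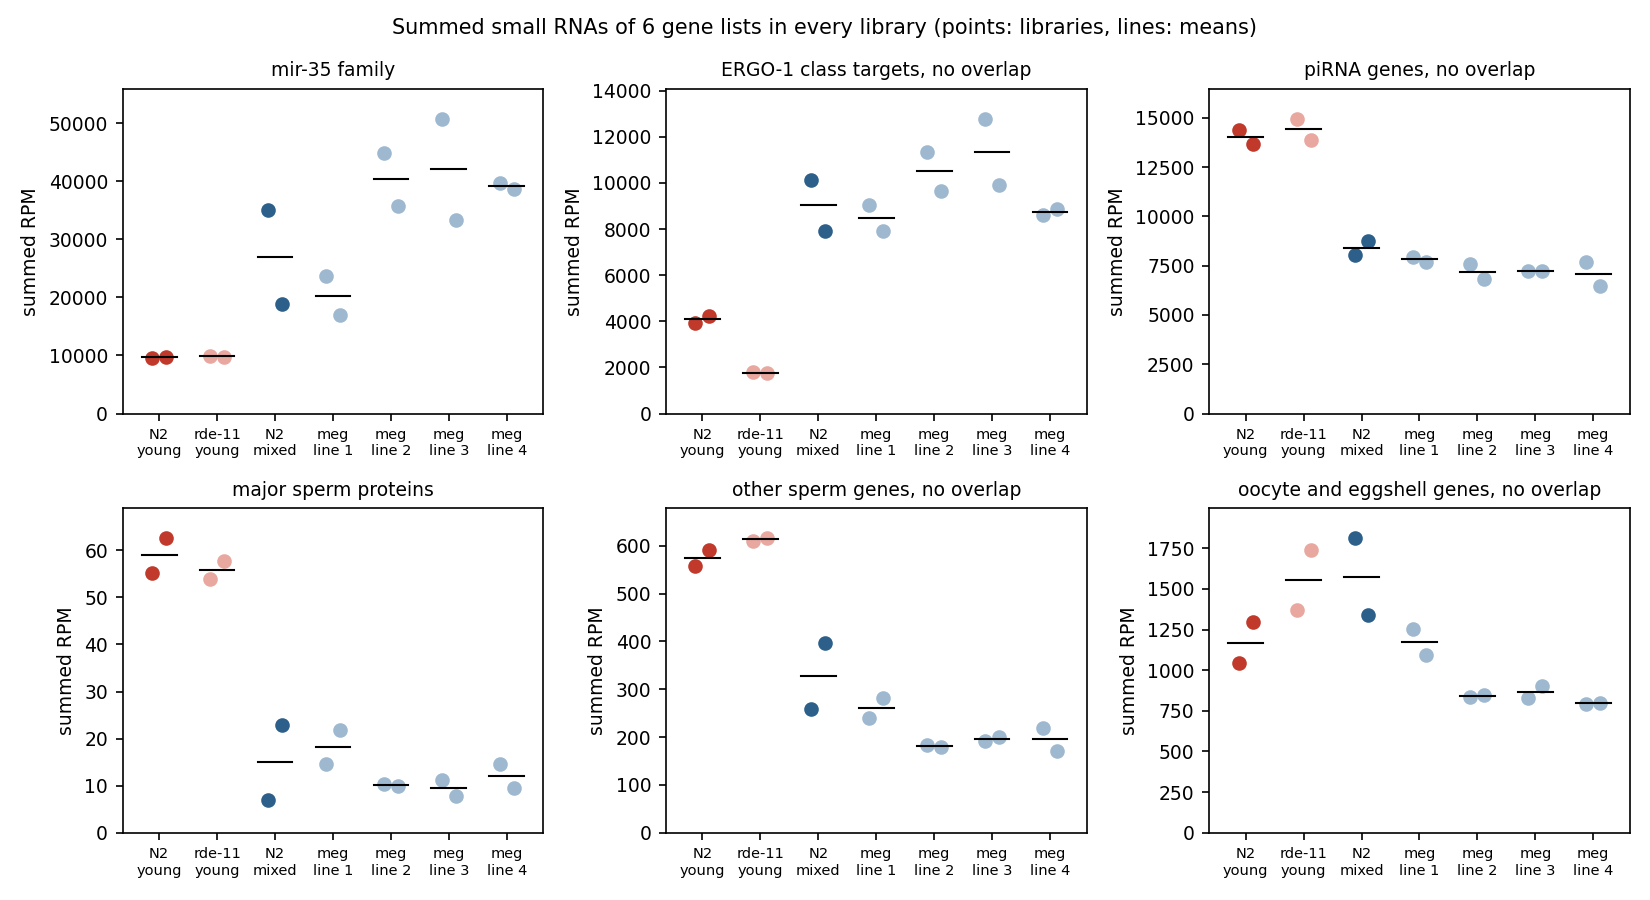
Summed small RNA level (RPM) of 6 gene lists in each of the 14 small RNA libraries, with points for libraries and lines for the mean of 2; panel titles say where only genes without an annotated overlap were summed, and meg lines 1 to 4 carry the meg-4 alleles in the order given in the text. The young mother libraries lie below all mixed libraries for the mir-35 family and the ERGO-1 class targets and above all of them for piRNA genes and both sperm lists, whereas the oocyte list overlaps.

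Oocyte and eggshell genes leaned lower in young mothers, with 3 calls. Of 33 tested 3 were lower and 0 higher, against 5.03% and 9.75% over all tested genes. Their median log2 difference was -0.40, with 26 below 0 and 7 above. Both mixed libraries lay above both young mother libraries at 16 of the 33, against 26.2% over all, and below them at 3, against 33.4%. The eggshell chondroitin proteoglycan gene cpg-2 had 23.01 and 24.3 RPM in young mothers and 50.7 and 44.6 in mixed populations (log2 -0.98, SE 0.21). mex-5, which patterns the early embryo, had 21.4 and 22.5 against 55.6 and 36.3 (log2 -1.003), and egg-1, a receptor of the oocyte surface, had 26.5 and 31.9 against 72.8 and 52.9 (log2 -1.07) and overlaps another gene. The rde-11 young mothers and the meg-3 meg-4 lines overlapped at cpg-2 (20.4 and 27.6, and 21.9 to 40.8) and at mex-5 (34.5 and 47.5, and 21.5 to 40.9). At egg-1 rde-11 young mothers, with 42.1 and 47.7, lay above the meg-3 meg-4 lines, with 23.6 to 39.1. Leaving out either young mother library ended all 3 calls, and leaving out mixed library 2 gave 19 lower calls. The yolk receptor gene rme-2 had 129 and 187 against 297 and 178 and was not called (log2 -0.57). Of 9 tested early zygotic genes 2 were lower and 1 higher, against 5.03% and 9.75% over all tested genes. The lower ones were sdz-37, at 11.7 and 13.2 against 45.9 and 40.02 (log2 -1.71), and sdz-26, at 731 and 760 against 1420 and 1149 (log2 -0.78). The higher one was sdz-10, at 23.7 and 34.4 against 16.3 and 11.01 (log2 1.04).

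Markers of other tissues mostly stood near the filter and were not called. The counts in this paragraph stand against 5.03% lower and 9.75% higher over all tested genes. The 3 tested yolk protein genes had 0 calls, as had 6 body wall muscle genes, 10 moulting genes and 2 intestinal protease and lysozyme genes. Of 10 tested collagens col-60 was lower, at 35.9 and 33.0 RPM against 70.1 and 96.1 (log2 -1.23). Of 9 neuronal genes 2 were lower, and both overlap another gene. unc-17, the vesicular acetylcholine transporter, had 12.2 and 10.5 against 73.3 and 113 (log2 -2.90, limma adjusted p = 9.39e-05), held without any 1 library, and had 50.03 to 102 in the meg-3 meg-4 lines. unc-10, a synaptic vesicle release factor, had 464 and 387 against 993 and 645 (log2 -0.92). At unc-10 the meg-3 meg-4 lines had 424 to 650 and rde-11 young mothers 522 and 460, so these libraries overlapped. Of the 17 tested histone genes his-24, a linker histone gene that overlaps another gene, was higher at 2502 and 2714 against 1138 and 1071 (log2 1.24), and 0 of 68 ribosomal protein genes were called.

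**Figure D5:**
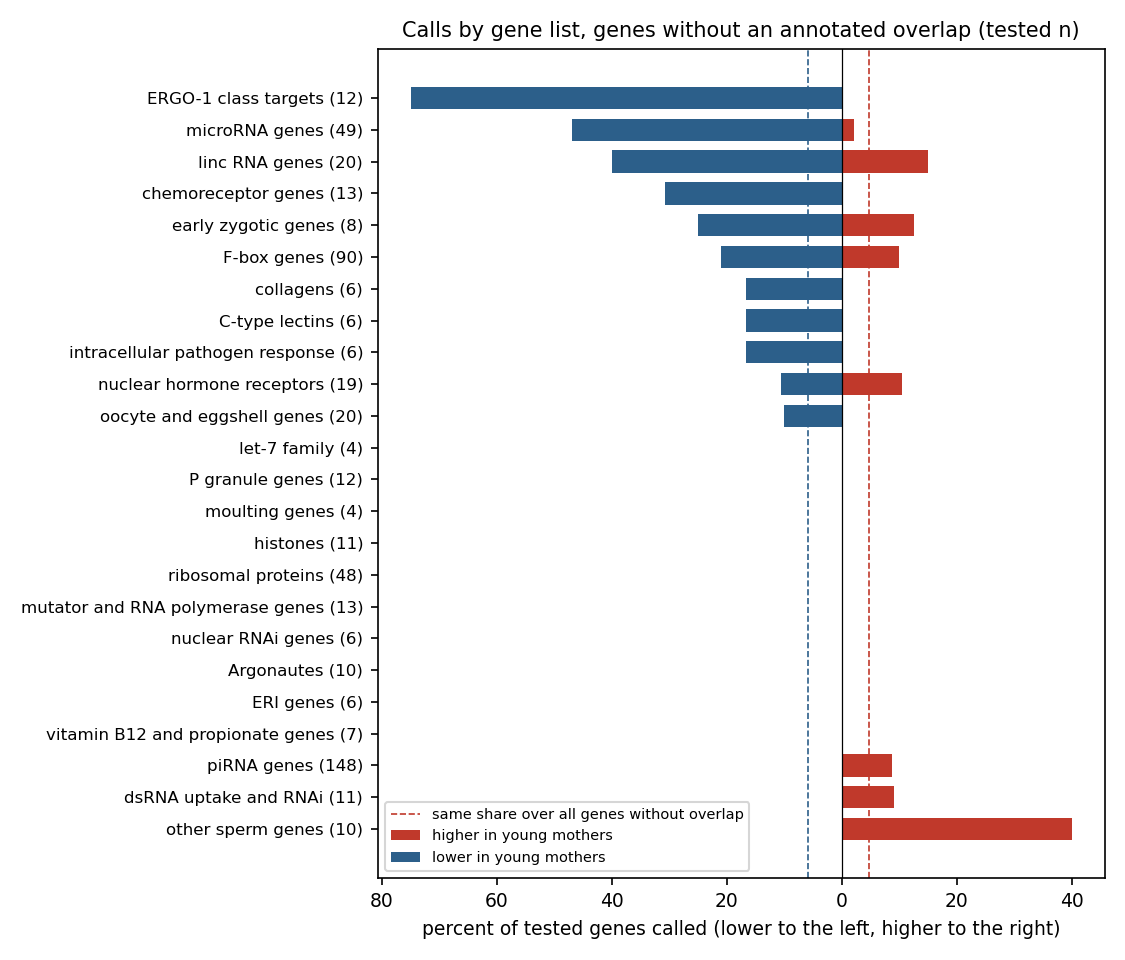
Percent of tested genes without an annotated overlap that were called lower (left, blue) or higher (right, red) in N2 young mothers, for each list with at least 4 such genes, the number tested in brackets; dashed lines mark the same shares over all 4131 genes without an overlap, 5.83% and 4.74%. ERGO-1 class targets reach furthest to the left, with 9 of 12 lower. The sperm bar, 4 of 10, covers only genes that passed the filter, mainly through young mothers, and is 0 of 10 with TMM scaling.

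The genes that make and use small RNAs gave 1 call. rde-11, needed for RNA interference by supplied double-stranded RNA, had small RNAs of 658 and 623 RPM in young mothers and 428 and 368 in mixed populations (log2 0.69, SE 0.15, limma adjusted p = 0.0176). The call was lost without young mother library 1 or 2, and the meg-3 meg-4 mixed libraries had 828 to 4014 there. sid-1, the importer of double-stranded RNA, had 674 and 638 against 491 and 452 and missed the threshold (log2 0.48, adjusted p = 0.0613, limma), and it passed with TMM scaling (adjusted p = 0.0493, limma). Of 13 tested genes of double-stranded RNA uptake and RNA interference 1 was higher and 0 lower, against 9.75% and 5.03% over all tested genes. Of 16 mutator and RNA polymerase genes, 11 nuclear RNA interference genes, 14 Argonautes and 11 ERI genes 0 were called.

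Germ granule genes were not called, 0 of 15. meg-3, which the files list as gei-12, had 12.9 and 11.95 RPM in young mothers and 19.7 and 13.2 in mixed populations (log2 -0.35), and meg-4, listed as C36C9.1, had 69.3 and 73.2 against 35.9 and 50.5 (log2 0.73, limma adjusted p = 0.067). Both lay at or below 2.33 in the meg-3 meg-4 lines, in which these genes are mutated. glh-2, a germline helicase gene, had 25.1 and 32.8 against 61.9 and 44.6 and was not called (log2 -0.85, limma adjusted p = 0.0579), though it passed with TMM scaling (limma adjusted p = 0.0396).

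Large gene families held calls in both directions. Of 110 tested F-box genes, a fast-evolving family of ubiquitin ligase adaptors, 24 were lower and 11 higher. Of the 90 without an overlap 19 were lower and 9 higher, against 5.83% and 4.74% of all genes without an overlap. Over all tested genes, overlaps included, 5.03% were lower and 9.75% higher, and the higher count of the 110 is near that share. Without young mother library 1 or 2 the lower calls were 7 and 6. fbxc-38 had 2.82 and 1.03 RPM in young mothers and 51.2 and 44.04 in mixed populations (log2 -4.12), fbxa-46, which overlaps another gene, 9.39 and 9.48 against 211 and 141 (log2 -4.06), and fbxa-54 3.29 and 2.06 against 26.7 and 83.0 (log2 -3.73). fbxc-47, which also overlaps another gene, went the other way with 41.6 and 43.5 against 3.40 and 3.22 (log2 3.34, SE 0.21, limma adjusted p = 7.87e-06). fbxb-40 had 16.2 and 15.7 against 5.34 and 6.98 (log2 1.25). Without any 1 library the calls of fbxc-38, fbxa-46 and fbxc-47 held.

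Of 20 tested chemoreceptor genes, of 1345 listed, 7 were lower and 0 higher, against 5.03% and 9.75% over all tested genes. Of the 13 without an overlap 4 were lower, against 5.83% of all genes without an overlap. Without young mother library 1 or 2 the 20 genes had 1 lower call each. sre-44, which overlaps another gene, had 4.93 and 5.98 RPM against 25.5 and 22.02 (log2 -1.94), and its call held without any 1 library. At sre-44 the meg-3 meg-4 mixed libraries had only 2.99 to 10.6, below both N2 mixed libraries, and rde-11 young mothers had 2.46 and 3.45. srd-70 had 74.9 and 63.7 against 146 and 147 (log2 -1.08) and was named after its values were seen. Of 39 nuclear hormone receptor genes 4 were higher, near the 9.75% over all tested genes, and 5 lower, against 5.03%. Of the 19 without an overlap 2 were higher and 2 lower, against 4.74% and 5.83% of all genes without an overlap. nhr-84 had 78.4 and 81.2 against 36.2 and 33.8 (log2 1.17) and nhr-146 had 114 and 115 against 255 and 248 (log2 -1.13). Of 11 C-type lectin genes, a family linked to contact with microbes, 5 were lower and 0 higher, against the same 5.03% and 9.75%. Of these 5 genes 4 overlap another gene. clec-166 had 20.7 and 29.5 against 66.7 and 204 (log2 -2.20), a call that TMM scaling ended (limma adjusted p = 0.0623), and rde-11 young mothers had only 0.492 and 0.406.

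Genes tied to food gave little. Of 9 tested genes of vitamin B12 and propionate use, which answer to the bacterial diet in worms, 0 were called, and their median log2 difference was -0.08. Of the 6 tested pals genes of the intracellular pathogen response 1 was lower and 0 higher, against 5.03% and 9.75% over all tested genes. The lower one was F22G12.1, at 7.51 and 8.45 RPM against 21.4 and 16.7 (log2 -1.15). The 13 small heat shock genes summed to 3.99 and 1.65 in young mothers and 8.01 and 4.57 in mixed populations, and 0 reached the mean of 10. The comparison has 2 libraries a group, so a gene that missed the threshold is not shown to be alike in young mothers and mixed populations.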

How the data were processed

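Small RNA reads of N2 were measured in 2 young mother and 2 mixed libraries. The small RNA tables hold RPM per gene, as deposited by the authors, and the messenger RNA table holds a scaled signal per gene, as deposited by the authors. The tools named are HTSeq, Bowtie2, cutadapt, DESeq2 and HISAT2, with build ce10, per the submitters' processing notes; roles, versions, annotation and handling of reads that fit several genes are not given in the sources used here. All RPM values were whole reads within 0.02 after division by the value of 1 read (100% of values). Reads were rescaled to 1000000 over 42048 shared genes; genes listed only in the mixed tables held 2.19 and 2.53% of N2 mixed reads. RefSeq gene spans of WBcel235, used for overlaps and classes only, matched 99.3% of genes.

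The test was limma 3.58.1 with a mean trend (R 4.3.3) on log2(RPM + 1), for a mean of at least 10 and adjusted p below 0.05, and it was tested on simulated data. The added 1 makes differences of low genes smaller than their ratios. Alternatives were pseudocounts 0.5 and 5, filters of 1, 50 and none, 5 other scalings, edgeR 4.0.16 and DESeq2 1.42.0 on recovered reads, the replicate number as a block and each library left out. Named genes were the 10 higher and 10 lower with the largest difference outside the microRNA, piRNA and structural classes, up to 3 called per list and direction, all tested members of 5 microRNA families, and sid-1, rde-11, meg-3 and meg-4. Other named genes were added after their values were seen. The members and lists were chosen with earlier results of these data known, and the chemoreceptor list was narrowed to receptor families after its values were seen.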

Additional observations from a re-analysis of the deposited data

How the results depend on the processing

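Counts are given as higher and lower in young mothers, over all tested genes and then without an overlap, against 735 and 379, and 196 and 241. A mean of at least 1 gave 1871 and 416, and 260 and 265, no filter gave 1772 and 323, and 160 and 205, and a mean of at least 50 gave 337 and 258, and 125 and 159. Leaving microRNA genes out of the library total gave 598 and 573, and 125 and 362. Testing only genes without an overlap, rescaled among themselves, gave 327 and 192, and taking the total over them for all genes gave 1053 and 327, and 368 and 210; both were chosen after seeing the data. Leaving out 1 library gave 261 to 1443 higher and 86 to 1182 lower, and 10 to 554 and 60 to 746 without an overlap. edgeR gave 824 and 469, and DESeq2 696 and 402. The cause of these shifts was not tested. Libraries with the same replicate number did not deviate together (r = -0.19, across genes), and a replicate block gave 818 and 405, and 257 and 259. The crossed pairing, added after seeing the data, gave 1121 and 727, and 407 and 468. With 2 libraries a group and low counts at sperm and chemoreceptor genes, small differences were not detectable.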
